A study of Mus musculus with 18 samples.

Results

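The 9 genes described here are the GABA synthesis and loading genes Gad1, Gad2 and Slc32a1 and the interneuron markers Pvalb, Sst, Vip, Npy, Cck and Reln. They were taken by symbol, and each matched 1 of the 55401 gene identifiers in the count table. All 9 were among the 18994 genes that passed a filter on low counts and were tested. RNA was sequenced from dissected tissue of the bed nucleus of the stria terminalis, or BNST, and of the prelimbic medial prefrontal cortex (mPFC) in adult male wild-type C57BL/6 mice. Each region had 3 groups of 3 libraries, which were mice 24 h after a formalin injection, mice 72 h after an injection of complete Freund's adjuvant (CFA), and control mice given neither injection. Formalin stood for acute pain and CFA for persistent inflammatory pain, and the question was how the transcripts of both regions differ between them. The agent and the time after injection differ together and cannot be told apart, and controls without an injection do not separate either agent from the injection itself. The labels and methods describe such controls, while the paper elsewhere calls them sham-treated, so whether that limit holds is not settled. Both treatments were set against the same 3 control libraries of a region, so the changes after formalin and after CFA are not independent of each other.

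GABA, the main inhibitory transmitter of the brain, is made from glutamate by the glutamate decarboxylases that Gad1 and Gad2 encode, and the vesicular transporter Slc32a1 loads it into synaptic vesicles. In the cortex GABA is released by interneurons, a minority among glutamatergic pyramidal cells, and their classes are told apart by the calcium buffer parvalbumin (Pvalb), the peptides somatostatin (Sst), vasoactive intestinal peptide (Vip), neuropeptide Y (Npy) and cholecystokinin (Cck), and the secreted glycoprotein reelin (Reln). The BNST is a limbic nucleus in which most neurons themselves use GABA. Cck is also made by many pyramidal and thalamic cells, Pvalb by some thalamic neurons, and Reln by Cajal-Retzius cells, so that in bulk tissue none of these transcripts marks 1 cell class.

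The libraries held 14781315 to 23408503 counts. A tag in the study's supplement was taken as the sequencing lane. It was L1 for BNST control replicates 1 and 2, L3 for BNST formalin replicate 1 and L2 for all other libraries. In the BNST, lane and treatment therefore differ partly together and cannot be fully told apart. Levels are given as CPM, which are counts relative to a library size scaled by TMM factors, in the order of replicates 1, 2 and 3, and levels of different genes were compared only as TPM, which also divide by exon length. Genes were tested with edgeR's quasi-likelihood test in 1 model of all 18 libraries, and a gene was called where the p adjusted over all tested genes was under 0.05 and the log2 fold change lay beyond 0.5 in either direction. Intervals are 95% intervals of the fitted change. Markers of cortical pyramidal neurons summed to 2192 to 2682 CPM in the 9 mPFC libraries, and to 84.1 to 613 CPM in the 9 BNST libraries. The BNST libraries also differed in markers of neighbouring tissue. Their 8 markers of striatal medium spiny neurons summed to 1362 to 1930 CPM after formalin, 302 to 720 CPM after CFA and 1606 to 3751 CPM in controls, and their 6 thalamus markers to 258 to 400 CPM, 506 to 889 CPM and 232 to 598 CPM in the same order of groups. The most unequal list was that of choroid plexus, whose 6 markers summed to 2699, 8124 and 5194 CPM after formalin, 175, 16587 and 149 CPM after CFA and 17.8, 664 and 42.9 CPM in controls. Over all genes, BNST CFA replicate 2 stood apart from its group, since the chi-square of the counts divided by its degrees of freedom was 60.4 against replicate 1 and 79.2 against replicate 3, while replicates 1 and 3 gave 8.05. Changes after CFA are therefore also given without it for Reln and Pvalb. No marker particular to the BNST was tested, so striatal and thalamus markers from BNST cells and from neighbouring tissue cannot be told apart. The paper reports the striatal markers Drd1, Drd2 and Adora2a as differing in the BNST between formalin and CFA. In bulk tissue, fewer cells of a type and less RNA per cell cannot be told apart.

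The 250 bases before the RefSeq start (GRCm38.p6, written 5′ to 3′ on the strand of the gene) are shown for Reln, Vip and Sst. Reln was lower in the BNST after CFA, and the peptide genes Vip and Sst were lower in the BNST than in the mPFC. Pvalb, which was higher in the BNST after CFA, is not shown and held none of the motifs searched. Capitals mark GGGCGG, the GC box, in Reln at chr5:22344706-22344955 on the minus strand. They mark TATAAA, the TATA box, and TGACG, the core of the cAMP response element, in Vip at chr10:5638968-5639217 on the plus strand. They mark TGACGTCA, the whole cAMP response element, in Sst at chr16:23890845-23891094 on the minus strand.
Reln: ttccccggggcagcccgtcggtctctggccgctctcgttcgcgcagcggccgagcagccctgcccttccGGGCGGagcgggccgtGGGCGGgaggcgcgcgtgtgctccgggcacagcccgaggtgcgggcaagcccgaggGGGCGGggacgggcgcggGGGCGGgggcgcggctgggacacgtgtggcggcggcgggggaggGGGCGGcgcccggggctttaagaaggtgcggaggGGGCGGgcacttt
Vip: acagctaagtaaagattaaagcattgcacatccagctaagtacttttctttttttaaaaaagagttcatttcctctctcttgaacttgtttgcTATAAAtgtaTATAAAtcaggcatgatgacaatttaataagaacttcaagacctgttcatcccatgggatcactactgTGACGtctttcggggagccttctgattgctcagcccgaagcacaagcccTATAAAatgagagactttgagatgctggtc
Sst: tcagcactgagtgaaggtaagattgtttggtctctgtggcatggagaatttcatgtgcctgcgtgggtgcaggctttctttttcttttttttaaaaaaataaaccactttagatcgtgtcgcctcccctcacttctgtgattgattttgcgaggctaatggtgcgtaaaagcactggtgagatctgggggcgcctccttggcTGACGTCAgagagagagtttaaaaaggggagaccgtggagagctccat
All 9 members matched an entry of the promoter table, and the motifs were searched on both strands. The Reln stretch was 80.0% G and C and held the GC box 6 times, against a median of 52.4% G and C over the 32851 promoters of the table, of which 32.7% held the GC box. The Vip stretch was 38.4% G and C and held TATAAA 3 times, a motif that 12.4% of promoters held. TGACGTCA, which contains TGACG on both strands, stood in Sst, 1 of the 9 members, and in 1.55% of all promoters. TGACG alone stood in 4 of the 9 members, Gad2, Sst, Vip and Cck, and in 17.8% of promoters. The GC box stood in 3 of the 9 members and TATAAA in 2. CACGTG, the E-box, stood in 2 of the 9 members and in 6.02% of promoters. One of these members is Reln, where it is not marked. A match describes the letters and is not a measured binding site.

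**Figure D1:**
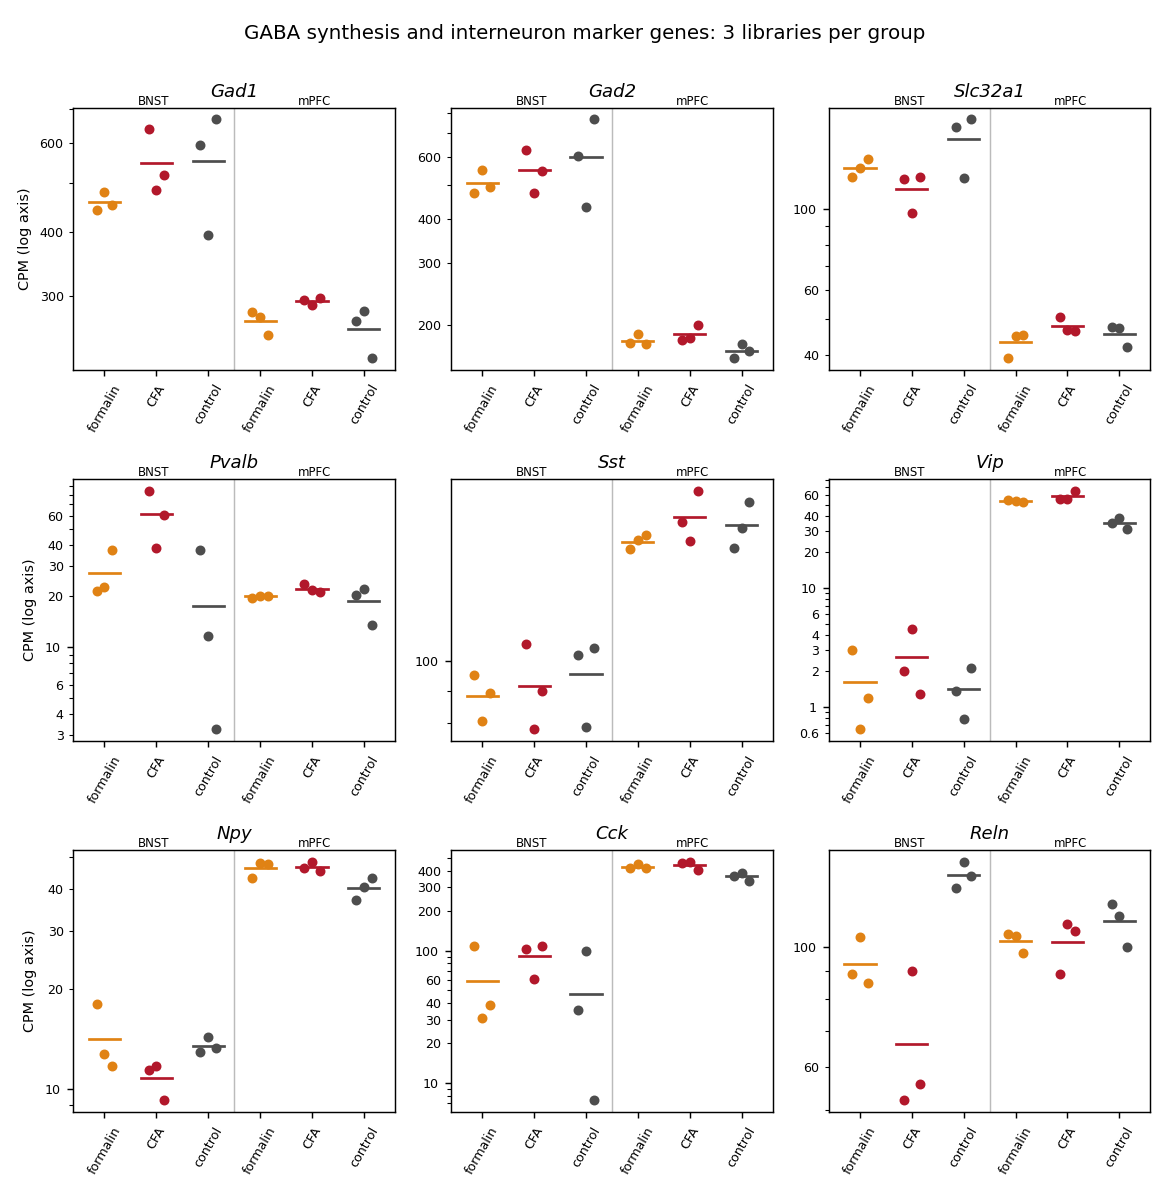
Level of each of the 9 genes in every library, as CPM on a log axis whose range differs between panels. Points are the 3 libraries of a group (orange formalin, red CFA, grey control), bars are group means, and the line divides BNST from mPFC. Gad1, Gad2 and Slc32a1 lay higher in every BNST library than in any mPFC library, and Sst, Vip, Npy and Cck lay lower.

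The 2 regions differed in opposite directions for the 2 kinds of genes. The 3 genes of GABA synthesis and loading rose in the BNST relative to the mPFC, and the 4 peptide genes Sst, Vip, Npy and Cck fell, in each of the 3 treatments. In formalin mice 7 of the 9 members were called, where 33.3% of all tested genes were. In CFA mice 9 of 9 were called against 38.1% of all genes, or 7 to 9 without each library in turn, where the calls of Pvalb and Reln were the ones lost, and in control mice 7 of 9 against 26.6% of all genes. The median log2 fold change of all genes was between -0.01 and 0.04 in these comparisons. The regions did not overlap for 8 of 9 members in each treatment. Of all tested genes, 59.3% did not overlap in formalin mice, 60.4% in CFA mice and 48.5% in control mice. Of the 8 striatal medium spiny neuron markers, 8 were called higher in the BNST in formalin and control mice and 4 in CFA mice. Their part in the region differences of Gad1, Gad2 and Slc32a1 was not tested.

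Gad2, the decarboxylase bound to synaptic vesicles, had 473, 550.2 and 493 CPM in the BNST of formalin mice, 629, 474 and 548 CPM in the BNST of CFA mice and 603, 432 and 767 CPM in the BNST of control mice. In the mPFC it had 177, 188 and 176 CPM after formalin, 181, 183 and 200.01 CPM after CFA and 161, 176 and 168 CPM in controls. No BNST library came near the mPFC range, and the BNST controls spread the most. The BNST exceeded the mPFC by a log2 fold change of 1.49 ± 0.15 (SE) in formalin mice, 1.55 ± 0.15 in CFA mice and 1.83 ± 0.15 in control mice, with edgeR adjusted p of 4.64e-07, 2.46e-07 and 7.64e-08.

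Gad1, the decarboxylase found throughout the cell, had 444, 481 and 454 CPM in the BNST after formalin, 641, 485 and 520.0 CPM after CFA and 594, 395 and 668 CPM in controls. Its mPFC levels were 278, 272 and 251 CPM after formalin, 294, 288 and 297 CPM after CFA and 267, 279 and 227 CPM in controls. The regions did not overlap, but they lay closer than for Gad2. Its log2 fold change was 0.78 ± 0.15 (SE) in formalin mice, 0.91 ± 0.15 in CFA mice and 1.10 ± 0.15 in control mice.

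The balance of the 2 decarboxylases therefore differed by region. Per exon length, Gad1 stood at 0.67 to 0.79 of the level of Gad2 in the 9 BNST libraries and at 1.04 to 1.28 times its level in the 9 mPFC libraries. The ranges of the 2 regions did not overlap. Within a region the TPM ratios of the 3 treatments lay close, and in the BNST they were 0.67 to 0.72 after formalin, 0.73 to 0.79 after CFA and 0.67 to 0.76 in controls.

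Slc32a1, the vesicular GABA transporter, had 122, 129.7 and 137 CPM in the BNST after formalin, 121, 97.8 and 122 CPM after CFA and 168, 122 and 176 CPM in controls, against 39.3, 45.0 and 45.4 CPM, 50.8, 46.8 and 46.6 CPM, and 47.6, 47.4 and 42.0 CPM in the same groups of the mPFC. Every BNST library stood above every mPFC library. The fold of the BNST over the mPFC was 3.003 in formalin mice, 2.36 in CFA mice and 3.39 in control mice, and all 3 were called. The antisense gene Gm14205 overlaps 697 bases of its exons, and whether reads were counted by strand is not given in the sources used here.

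Of the peptide genes, Vip differed the most between the regions. It had 3.01, 0.65 and 1.19 CPM in the BNST after formalin, 1.99, 4.53 and 1.27 CPM after CFA and 1.36, 0.79 and 2.11 CPM in controls, which rests on 12 to 92 counts a library. Its mPFC levels were 54.8, 53.3 and 53.0 CPM after formalin, 55.7, 55.6 and 65.5 CPM after CFA and 35.4, 38.2 and 31.0 CPM in controls. The highest BNST library lay far below the lowest mPFC library. The fold of the BNST over the mPFC was 0.0294 in formalin mice, 0.0442 in CFA mice and 0.0405 in control mice.

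Cck, the peptide gene with the highest level per length in the mPFC, had 107, 31.1 and 38.5 CPM in the BNST after formalin, 102, 61.4 and 108 CPM after CFA and 35.5, 98.4 and 7.43 CPM in controls. Its mPFC levels were 418, 448 and 421 CPM after formalin, 456, 467 and 405 CPM after CFA and 367, 385 and 335 CPM in controls. The mPFC libraries of a group lay close together, while the BNST control libraries spread over an order of magnitude. Cck fell in the BNST by log2 fold changes of -2.87 ± 0.67 (SE) in formalin mice, -2.29 ± 0.65 in CFA mice and -2.94 ± 0.67 in control mice. With the mouse as a block, the difference in control mice was -3.48 with an edgeR adjusted p of 0.051 and was not called. In that fit, 1 mouse without an mPFC library and 1 without a BNST library add nothing to a control comparison, which leaves 2 pairs.

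Npy had 18.03, 12.8 and 11.7 CPM in the BNST after formalin, 11.4, 11.8 and 9.30 CPM after CFA and 12.9, 14.4 and 13.3 CPM in controls, against 43.1, 47.9 and 47.4 CPM, 46.3, 48.2 and 45.2 CPM, and 37.1, 40.4 and 43.1 CPM in the same groups of the mPFC. No library of a region reached the other region. Its log2 fold change was -1.71 ± 0.13 (SE) in formalin mice, -2.11 ± 0.13 in CFA mice and -1.57 ± 0.13 in control mice.

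Sst showed the smallest difference of the 4 peptides. It had 95.1, 80.8 and 89.1 CPM in the BNST after formalin, 107, 78.4 and 90.0 CPM after CFA and 103, 79.1 and 105 CPM in controls. Its mPFC levels were 150.0, 155 and 158 CPM after formalin, 165, 154 and 185 CPM after CFA and 151, 162 and 178 CPM in controls. The highest BNST library stayed below the lowest mPFC library, and the fold of the BNST over the mPFC was 0.573, 0.544 and 0.585 in formalin, CFA and control mice.

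Pvalb and Reln had no stable order of the regions. Pvalb had 21.5, 22.7 and 37.7 CPM in the BNST after formalin, 84.4, 38.8 and 60.9 CPM after CFA and 37.6, 11.7 and 3.28 CPM in controls. In the mPFC it had 19.6, 20.1 and 20.2 CPM after formalin, 23.6, 21.8 and 21.05 CPM after CFA and 20.4, 22.0 and 13.5 CPM in controls. The BNST controls lay on both sides of the mPFC controls. For the BNST over the mPFC, the log2 fold change of Pvalb was 0.46 ± 0.57 (SE) in formalin mice, 1.47 ± 0.57 in CFA mice, where it was called with an edgeR adjusted p of 0.0447, and -0.09 ± 0.58 in control mice. The call in CFA mice was lost in 14 of the 18 fits without 1 library, with values between 1.18 and 1.71 and an adjusted p of up to 0.14, and stayed only without BNST control replicate 1 or 3, BNST formalin replicate 3 or BNST CFA replicate 2. With the mouse as a block, Pvalb was also called in control mice, at -1.32, lower in the BNST with an adjusted p of 0.0331. That fit rests on 2 pairs and does not use the BNST control library with the highest Pvalb level, replicate 1.

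Reln was called in CFA mice, at -0.62 ± 0.16 (SE) for the BNST over the mPFC, and not in formalin mice (-0.14 ± 0.16) or control mice (0.28 ± 0.16). Its levels are given with the changes after CFA. The call in CFA mice was lost without BNST CFA replicate 1, where the log2 fold change was -0.48.

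**Figure D2:**
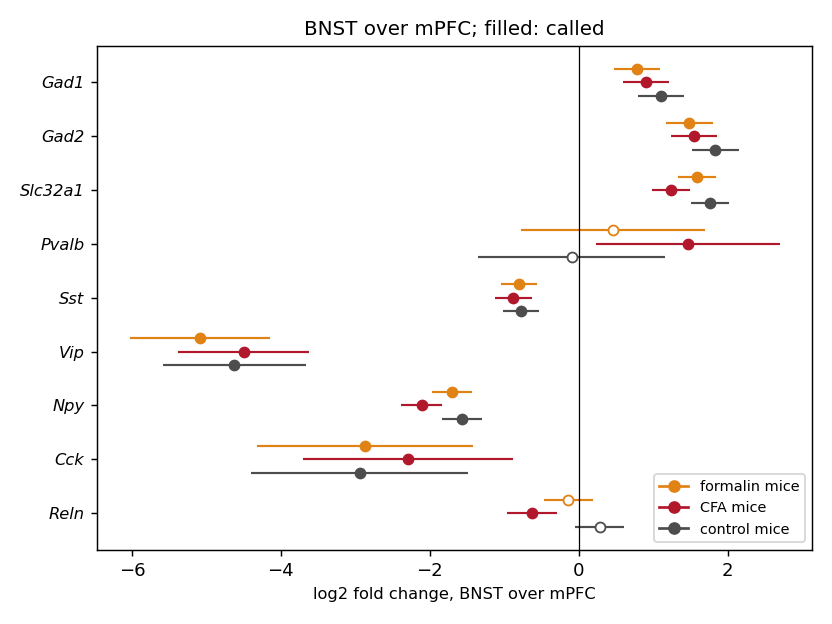
Log2 fold change of the BNST over the mPFC for each gene in formalin mice (orange), CFA mice (red) and control mice (grey), with 95% intervals. Filled points were called. The GABA synthesis and loading genes sit between 0.78 and 1.83, and the peptides between -5.09 and -0.77.

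Per exon length, the order of the members was not the same in the 2 regions. In control mice, TPM in the BNST averaged 546 ± 96.0 for Sst, 423 ± 133 for Gad2, 299 ± 85.4 for Gad1, 229 ± 48.8 for Slc32a1, 146 ± 142 for Cck, 98.4 ± 5.69 for Npy, 68.0 ± 68.9 for Pvalb, 23.5 ± 1.51 for Reln and 1.74 ± 0.87 for Vip (SD, n = 3). From Sst down to Reln, each gene lay within 1 SD of the next, by the larger SD of the pair, and Cck and Pvalb had an SD about as large as the mean. In the mPFC of control mice, TPM averaged 1086 ± 73.4 for Cck, 885 ± 70.8 for Sst, 278 ± 19.7 for Npy, 132 ± 14.01 for Gad1, 112 ± 4.26 for Gad2, 70.0 ± 17.02 for Pvalb, 63.8 ± 4.48 for Slc32a1, 40.0 ± 4.07 for Vip and 18.3 ± 1.76 for Reln. There Cck, Sst and Npy stood apart from one another and from the rest, while Gad1 overlapped Gad2 in range and Pvalb lay within 1 SD of Slc32a1. Sst stood at 1.12 to 1.64 times the TPM of Gad2 in the BNST libraries and at 6.72 to 8.63 times in the mPFC libraries.

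In the BNST after CFA, Reln fell and Pvalb rose relative to controls, and the other 7 members were not called. These 2 of 9 members stand beside 11.9% of all tested genes called in that comparison. The median log2 fold change was -0.06 over the 9 members and 0.01 over all genes. The groups did not overlap for 3 of 9 members, Reln, Pvalb and Npy, beside 31.5% of all tested genes.

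Reln, a secreted glycoprotein that acts through the receptors Vldlr and Lrp8 and the adaptor Dab1, had 52.1, 90.1 and 55.9 CPM in the BNST after CFA, against 128, 143 and 135 CPM in the BNST of controls. The groups did not overlap, and replicate 2, which held the choroid plexus RNA, stood apart from the other CFA libraries. Reln fell by a log2 fold change of -1.04 ± 0.16 (SE; interval -1.37 to -0.70) with an edgeR adjusted p of 0.000298, a fold of 0.488. Without each library in turn it stayed called, between -1.32 and -0.89, with -1.32 without CFA replicate 2. The antisense gene Gm10475 overlaps 246 bases of Reln exons.

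After formalin, BNST Reln had 89.0, 104 and 85.5 CPM, also below each control library. The log2 fold change over controls was -0.54 ± 0.16 (SE) and was not called in edgeR, with an adjusted p of 0.109. It was called without BNST CFA replicate 2, with an adjusted p of 0.0011, and under DESeq2, with -0.52 and an adjusted p of 0.0333. Over the edgeR fits without 1 library, 2 to 903 of all genes were called in that comparison, against 57 in the main fit. Formalin and CFA libraries overlapped for Reln, since CFA replicate 2 lay above 2 of the 3 formalin libraries. Formalin over CFA gave a log2 fold change of 0.49 ± 0.16, with an adjusted p of 0.046 but a change under the minimum of 0.5. Without CFA replicate 2 it was 0.78 and called, with an adjusted p of 8.81e-05.

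In the mPFC, Reln had 105, 105 and 97.1 CPM after formalin, 89.0, 110.0 and 107 CPM after CFA and 119.9, 114 and 99.7 CPM in controls, and all 3 groups overlapped. The change after CFA was -0.13 ± 0.16 (SE), against -1.04 in the BNST. The region difference of the CFA change, tested as an interaction, was -0.91 ± 0.22 (interval -1.38 to -0.44) with an edgeR adjusted p of 0.0264. Reln was thus 1 of 9 members called for that difference, where 4.17% of all tested genes were called. The call was lost without each of BNST control replicate 2, BNST CFA replicate 3, mPFC control replicates 2 and 3, and mPFC CFA replicates 2 and 3, with values between -1.20 and -0.76 and an adjusted p of up to 0.0724 over all libraries left out. It was also lost with no filter on low counts, at -0.88 and an adjusted p of 0.0808.

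Pvalb, the calcium buffer of fast-spiking interneurons, was higher in each BNST library after CFA than in any control library, but the gap between the lowest CFA library, 38.8 CPM, and the highest control library, 37.6 CPM, was small. The control libraries alone spanned 3.28 to 37.6 CPM. The log2 fold change was 1.81 ± 0.58 (SE; interval 0.56 to 3.06) with an edgeR adjusted p of 0.0401, a fold of 3.50. The call was lost in 13 of the 18 fits without 1 library, with values between 1.32 and 3.02 and an adjusted p of up to 0.121. The libraries behind those 13 losses were BNST control replicates 2 and 3, BNST CFA replicates 1 and 3, BNST formalin replicate 2, mPFC control replicates 1 and 2, and all 6 mPFC libraries of the formalin and CFA groups. Without BNST control replicate 1 the value was 3.02, and without replicate 3 it was 1.32. The call was also lost with the 9 BNST libraries fitted alone (1.80, adjusted p of 0.167) and with no filter on low counts (1.82, adjusted p of 0.0845).

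In the mPFC the change of Pvalb after CFA was 0.25 ± 0.58 (SE), an error whose spread includes the BNST libraries. The mPFC libraries of Pvalb spanned 13.5 to 22.0 CPM in controls and 21.05 to 23.6 CPM after CFA. The region difference of its CFA change was 1.56 ± 0.81 (interval -0.19 to 3.31) and was not called. It was called with the mouse as a block, at 2.73 and an edgeR adjusted p of 0.0283, which again leaves 2 control pairs, and without BNST control replicate 1, at 2.78 and an adjusted p of 0.0197.

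Tissue markers moved with both genes. In the BNST after CFA against controls, 8 of 8 striatal medium spiny neuron markers fell, 5 of 6 habenula markers rose, and 1 of 6 thalamus markers rose, with medians of -2.60, 2.51 and 0.94 on the log2 scale. Of the choroid plexus markers 1 of 6 rose (median 3.76), of the hypothalamus markers 2 of 5 rose (median 1.31), and of the markers of neuroblasts and dividing cells 3 of 5 fell (median -1.21). Without BNST CFA replicate 2, the library with the most choroid plexus RNA, 2 of 9 members were again called, Reln and Pvalb, with Pvalb at 2.05. The habenula markers summed to 67.5 to 132 CPM after CFA and 14.98 to 38.2 CPM in controls. In the mPFC the same list summed to 78.7 to 90.7 CPM after CFA and 93.9 to 98.5 CPM in controls. The sum alone therefore does not mark habenula tissue. Slc17a6, the glutamate transporter of thalamic and other subcortical neurons, had 375, 261 and 428 CPM after CFA, 120.2, 116 and 222 CPM after formalin and 221, 328 and 35.7 CPM in controls. The change of Slc17a6 after CFA, 0.86 ± 0.54 (SE), was not called. BNST control replicate 3, which was lowest in Slc17a6, was also lowest in Pvalb and Cck. BNST control replicate 2 was the highest control in Slc17a6 and Cck. For Pvalb it lay below replicate 1, at 11.7 against 37.6 CPM. Of the markers of Cajal-Retzius cells, a cell type that makes Reln, 1 of 4 rose after CFA (median 0.73). Trp73 had 9.49, 24.1 and 7.61 CPM after CFA, against 6.24, 5.78 and 6.87 CPM in controls. The highest of these values came from CFA replicate 2, the library with the most choroid plexus RNA. The part of these marker differences in the changes of Reln and Pvalb was not tested.

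**Figure D3:**
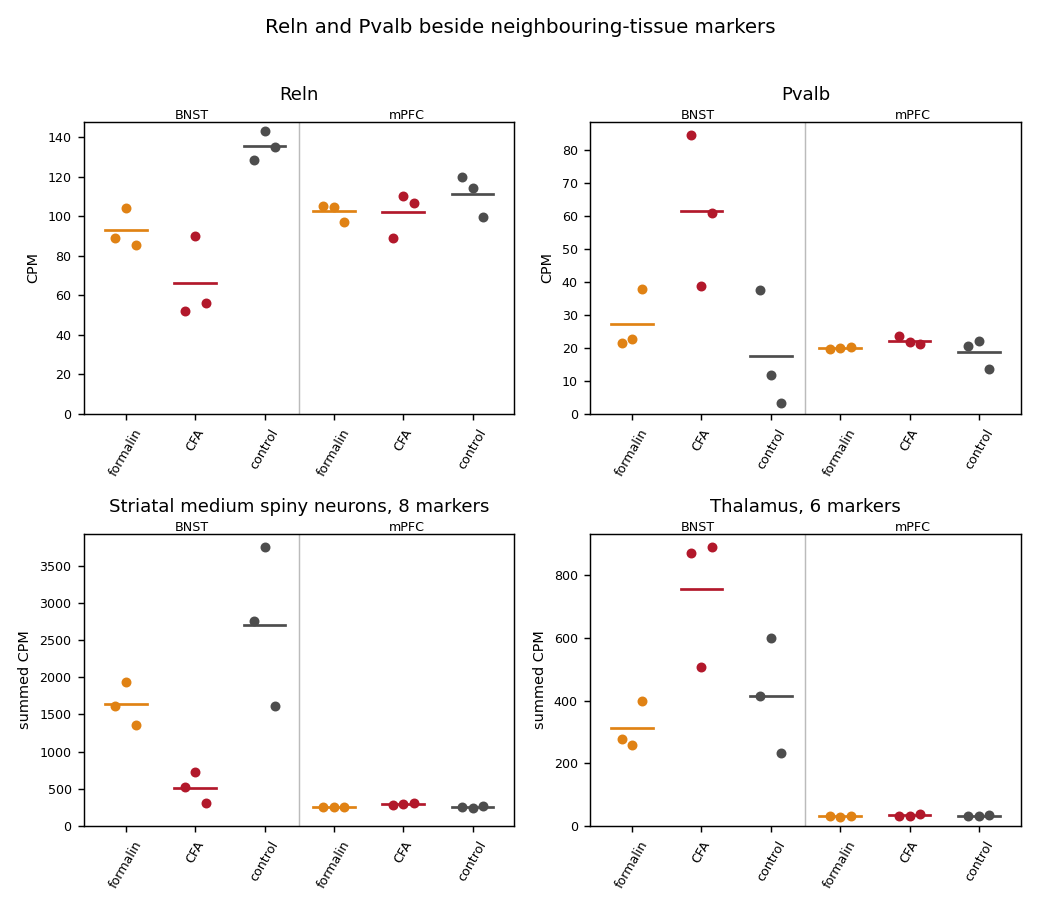
Reln and Pvalb in CPM (top) and the summed CPM of 8 striatal medium spiny neuron markers and 6 thalamus markers (bottom) in each library, on axes that start at 0, with bars at group means. In the BNST, the CFA libraries lie lowest for Reln in 2 of 3 cases, highest for Pvalb, and below every control library for the striatal markers.

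Of the other members in the BNST after CFA, Slc32a1 had a change of -0.45 ± 0.11 (SE) with an edgeR adjusted p of 0.0102, under the minimum fold. Its CFA libraries, 97.8 to 122 CPM, touched the control libraries, 122 to 176 CPM. It was called without BNST control replicate 2 and without BNST CFA replicate 3. Gad1 and Gad2, the enzymes upstream of it, differed from controls by -0.01 ± 0.14 and -0.13 ± 0.15, with intervals of -0.31 to 0.29 and -0.43 to 0.18. Relative to Gad2, the TPM of Slc32a1 stood at 0.40 to 0.47 after CFA, 0.50 to 0.58 after formalin and 0.48 to 0.59 in controls. The striatal medium spiny neuron markers fell in the BNST after CFA, with a median log2 fold change of -2.60. Their part in the values of Slc32a1, Gad1 and Gad2 was not tested.

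Npy was lower in each CFA library of the BNST than in any control library, at -0.32 ± 0.13 (SE), but was not called, with an edgeR adjusted p of 0.0868. Sst differed from controls by -0.06 ± 0.12, with an interval of -0.30 to 0.19. The change of Vip was 0.88 ± 0.51 at a level of a few CPM, and that of Cck 0.94 ± 0.64, and for both the CFA libraries overlapped the controls. For Cck the value was 2.08 and was called without BNST control replicate 2, the control library with the highest level. That library also had the highest Slc17a7, the glutamate transporter of cortical pyramidal cells, among the 3 BNST controls, at 121 CPM, against 15.5 and 11.7 CPM in replicates 1 and 3. In the BNST CFA libraries the 8 pyramidal markers summed to 222 to 239 CPM, while Cck spanned 61.4 to 108 CPM. The part of cortical tissue in the Cck values was not tested.

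In the BNST after formalin, none of the 9 members was called against controls, where 0.3% of all tested genes were called and 3726 of them had an unadjusted p under 0.05. The groups did not overlap for 1 of 9 members, Reln, whose formalin libraries lay below each control, beside 22.4% of all tested genes. The other members overlapped the controls. The log2 fold changes of Gad1, Gad2 and Slc32a1 were -0.27 ± 0.14 (SE), -0.25 ± 0.15 and -0.26 ± 0.11. DESeq2 called 1 member, Reln. None of the 6 choroid plexus markers was called in that comparison, at a median of 4.13, and their part in the values of the members was not tested. Cck was highest in formalin replicate 1, at 107 CPM, and that library had 377 CPM of Slc17a7, against 54.3 and 62.4 CPM in the other formalin libraries. The part of cortical tissue in these Cck values was not tested.

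Between formalin and CFA in the BNST, none of the 9 members was called, against 6.87% of all tested genes and 5842 genes with an unadjusted p under 0.05. With the replicate number as a block, 1 was called, Reln, at 0.51 with an edgeR adjusted p of 0.0179. DESeq2 also called 1, Reln. The groups did not overlap for 3 of 9 members, Gad1, Slc32a1 and Pvalb, beside 32.1% of all tested genes. Pvalb had a log2 fold change of -1.16 ± 0.56 (SE; interval -2.38 to 0.05), lower after formalin. The TPM ratio of Sst to Pvalb was 3.41 to 6.38 after formalin, 1.83 to 2.92 after CFA and 3.93 to 46.2 in the BNST controls, while the 9 mPFC libraries gave 10.1 to 19.1. The region difference of the formalin change was called for none of the 9 members, against 0.158% of all tested genes and 2779 with an unadjusted p under 0.05, and DESeq2 called none of the members either.

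In the mPFC, no member was called in edgeR's model of all libraries. This held after formalin, where 0.269% of all genes were called, after CFA, where 0.632% were, and between formalin and CFA, where 0.932% were. An unadjusted p under 0.05 was found for 2677, 2614 and 2927 genes in these 3 comparisons, and DESeq2 called no member in any of them. The groups did not overlap for 2 of 9 members after formalin against controls, Vip and Cck, beside 26.1% of all tested genes. They did not overlap for 5 of 9 after CFA against controls, Gad1, Gad2, Vip, Npy and Cck, all higher after CFA, beside 25.6% of all genes. Between formalin and CFA, 4 of 9 members did not overlap, Gad1, Slc32a1, Pvalb and Vip, all lower after formalin, beside 28.3% of all genes.

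Vip, made by interneurons that mainly inhibit other interneurons, had the largest of these differences. Each of the 6 mPFC libraries from treated mice, at 53.0 to 65.5 CPM, lay above each control library, at 31.0 to 38.2 CPM. The log2 fold change over controls was 0.62 ± 0.33 (SE; interval -0.10 to 1.34) after formalin and 0.76 ± 0.33 (interval 0.04 to 1.48) after CFA. The edgeR adjusted p was 0.434 after formalin and 0.337 after CFA. With the 9 mPFC libraries fitted alone, the same changes were 0.62 ± 0.08 and 0.75 ± 0.08 and were called, with an edgeR adjusted p of 0.000252 and 7.7e-06. The 2 fits gave nearly equal changes with different errors. The model of all libraries uses 1 spread per gene for both regions, and in the BNST Vip rests on 12 to 92 counts a library. The CFA and formalin libraries of the mPFC differed by -0.13 ± 0.33 (formalin over CFA). The region difference of the Vip change could not be resolved, with intervals of -1.86 to 0.93 for formalin and -1.17 to 1.42 for CFA.

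Cck in the mPFC was higher than in controls by 0.24 ± 0.62 (SE) after formalin and 0.29 ± 0.62 after CFA on the log2 scale, and Npy by 0.20 ± 0.12 and 0.21 ± 0.12. For Cck, too, that spread includes the BNST libraries. Gad1 was higher after CFA by 0.19 ± 0.14 and Gad2 by 0.16 ± 0.15, with intervals of -0.12 to 0.49 and -0.15 to 0.47. Slc32a1, Sst and Pvalb overlapped between CFA and controls.

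**Figure D4:**
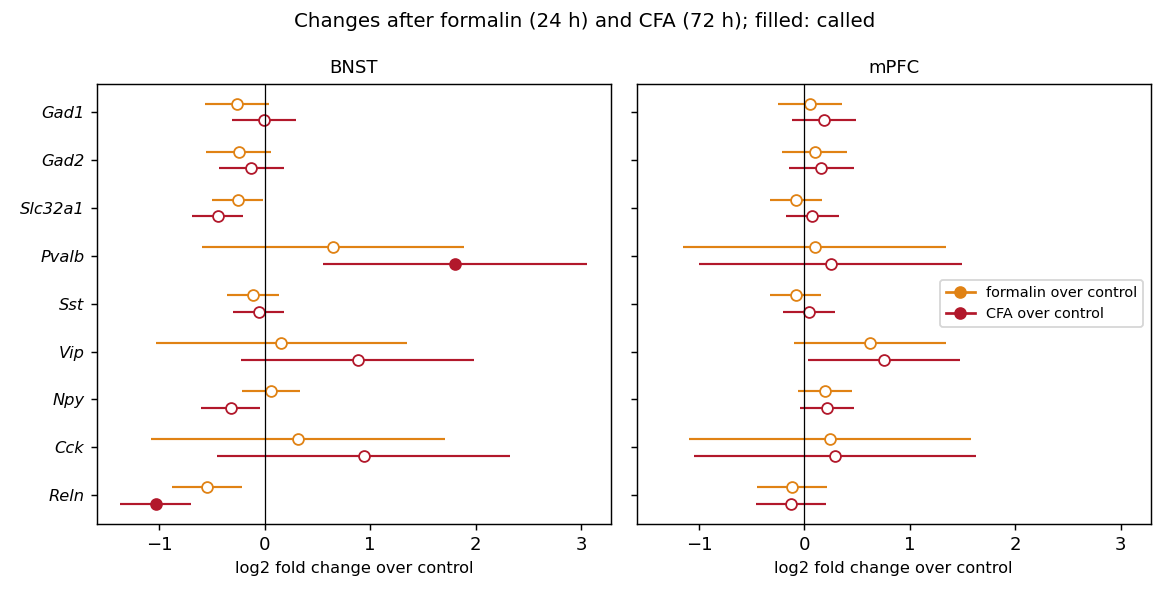
Log2 fold change over controls after formalin (orange) and CFA (red) in the BNST (left) and the mPFC (right), with 95% intervals on 1 shared axis, where filled points were called. Reln at -1.04 and Pvalb at 1.81 in the BNST after CFA are the filled points, and the mPFC panel has none.

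Genes that act before and after GABA release were followed as lists, whose counts in the BNST after CFA stand beside the 11.9% of all tested genes called there. In the BNST after CFA, the glutamine and glutamate supply list had 2 of 8 genes higher and none lower, with a median log2 fold change of 0.24 beside 0.01 over all genes. Slc38a2, a glutamine carrier, had 215, 219.6 and 191 CPM after CFA, against 94.7, 110.3 and 117 CPM in controls, a change of 0.96 ± 0.08 (SE) that was called in edgeR with an adjusted p of 9.82e-07. Its groups lay far apart. Glul, the glutamine synthetase of astrocytes, rose by 0.60 ± 0.12. Of the 5 astrocyte markers, 1 was called higher after CFA, at a median of 0.42 over the list. Their part in the change of Glul was not tested. None of the 6 genes of GABA uptake and breakdown was called in that comparison (median -0.05), and the 6 genes of chloride transport and the inhibitory postsynapse had a median of -0.34.

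Of 17 interneuron transcription factors, 2 rose and 3 fell in the BNST after CFA (median -0.11). The 3 that fell were Dlx5, Dlx6 and Sp9, and those that rose were Nr2f2 and Npas1. The striatal medium spiny neuron markers had a median of -2.60 there, and their part in these changes was not tested. Sp9 had 20.9, 19.3 and 17.9 CPM after CFA, against 35.0, 20.3 and 52.1 CPM in controls, where replicate 2 lay close to the CFA libraries. Of 10 fast-spiking cell genes, 2 rose (Cplx1 and Nek7) and 2 fell (Tac1 and Pthlh), with a median of 0.22. Tac1, the substance P precursor, is also made by striatal neurons, and its 28.8, 28.8 and 23.1 CPM after CFA lay below the 69.4, 110 and 38.4 CPM of controls.

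Among 18 markers of other interneuron classes, 5 rose and 3 fell in the BNST after CFA (median 0.12). Tac2, the neurokinin B precursor, had 24.0, 36.1 and 50.1 CPM after CFA, against 8.03, 17.1 and 9.66 CPM in controls, and rose by 1.66 ± 0.27 (SE) with no overlap. The others that rose were Crh, Htr3a, Sncg and Id2. Cnr1, the cannabinoid receptor of Cck interneurons, fell by 0.99 ± 0.14, with 106, 100.02 and 125 CPM after CFA and 210.5, 261 and 184 CPM in controls, and Kit and Lamp5 fell too. Cnr1 was also the only gene of all these lists that was called in the BNST after formalin, with 171, 114 and 113 CPM and a change of -0.72 ± 0.14. Striatal medium spiny neurons also make Cnr1, and their markers moved as given above, where the part of that was not tested.

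The receptors of the member peptides and of reelin numbered 15. In the BNST after CFA, 1 fell and none rose (median -0.01). That gene was Vipr1, a receptor of the Vip peptide, with 3.86, 4.09 and 3.15 CPM after CFA and 8.28, 13.4 and 6.501 CPM in controls, a change of -1.35 ± 0.27 (SE). Vldlr, Lrp8 and Dab1, which carry the reelin signal, were not called. In the mPFC the only called gene of the 7 lists was Slc38a5, a glutamine carrier, with 0.59, 0.79 and 0.52 CPM after CFA, 2.66, 3.30 and 1.92 CPM after formalin and 1.31, 2.52 and 4.41 CPM in controls. It was lower after CFA than in controls by -2.11 ± 0.45 and higher after formalin than after CFA by 2.04 ± 0.46.

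By region, the receptor genes were split, and the counts of all lists in control mice stand beside the 26.6% of all tested genes called there. In control mice 5 of 15 were higher in the BNST than in the mPFC and 8 were lower (median -1.09). Cckbr, the main brain receptor of cholecystokinin, had 8.90, 8.22 and 7.99 CPM in the BNST of controls, against 111, 101 and 101 CPM in the mPFC of controls. Cckar, the receptor better known from the gut, had 5.25, 5.73 and 2.66 CPM in the BNST of controls and no count in the 9 mPFC libraries. Vipr1 was lower in the BNST, at -2.39 ± 0.25 (SE), and Vipr2 higher, at 2.17 ± 0.47. Sstr1, Sstr2, Sstr3 and Sstr4 were lower and Sstr5 higher.

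Of the transcription factors, 8 of 17 were higher and 4 lower in the BNST of control mice (median 0.75). Nkx2-1, which specifies ventral forebrain GABA neurons, had 13.7, 5.90 and 15.2 CPM in the BNST of controls, against 0.05 to 0.15 CPM in the mPFC of controls. Npas1 and Satb1, which are used in cortical interneurons, were lower, at -2.22 ± 0.19 (SE) and -2.06 ± 0.12. Of the GABA uptake and breakdown genes 3 of 6 were higher and 1 lower (median 0.37). They included Slc6a11, a glial GABA carrier, at 1.49 ± 0.16 and Abat, the GABA transaminase, at 1.26 ± 0.09. Of the other interneuron markers 6 of 18 were higher and 6 lower (median -0.24), with Calb2, the calcium buffer calretinin, at 4.01 ± 0.44 and Htr3a, a serotonin receptor of cortical interneurons, at -2.18 ± 0.20.

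The genes most like Gad2, Sst and Pvalb across libraries were sought by Pearson correlation of log2 CPM over the 9 libraries of a region, among genes with a mean of at least 5 CPM. These libraries share treatments and, in the BNST, unequal markers of neighbouring tissue, and the correlations are a description. In the BNST, Gad2 was followed most closely by Slc35f1 (0.96), Gad1 (0.94) and Mia3 (0.94), out of 12324 genes. Sst was followed by Fmn2 (0.93), Cep170 (0.91) and Smarcb1 (0.91), and Pvalb by Pigyl (0.98), Esrrg (0.98) and Kcnab3 (0.96). In the mPFC, out of 11807 genes, Gad2 was followed by Nabp1 (0.96), Sft2d2 (0.96) and Rps2 (0.95), Sst by Utp14b (0.97), Carhsp1 (0.95) and Npc1 (0.95), and Pvalb by Wdr82 (0.97), Ndufb3 (0.97) and 9430041J12Rik (0.95). For none of the 3 members was a gene named in both regions.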

How the data were processed

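RNA was measured in 18 libraries, 9 of each region. Per the paper and the labels, the authors made the counts from paired-end reads in 3 steps, trimming (Trimmomatic 0.39), alignment to GRCm38 (HISAT2 2.2.1) and counting per gene (featureCounts 2.0.1). The authors deposited raw counts, whole numbers without normalization, for 55401 gene identifiers. Symbols, positions and exon lengths came from GENCODE M21, and 260 identifiers had no symbol. Counts were tested in R 4.3.3 with edgeR 4.0.16 (filterByExpr with a minimum count of 10 and a minimum total of 15, TMM factors, robust quasi-likelihood fit, 12 residual degrees of freedom), with Benjamini-Hochberg adjustment over 18994 genes, which hold 99.88% of all counts. The thresholds, an adjusted p under 0.05 and a log2 fold change beyond 0.5, are those of the study, which used DESeq2. Standard errors are the log2 fold change divided by the square root of F.

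All 9 members are described, with counts over 7 lists of pathway genes and 12 lists of cell type markers, whose examples were chosen after their values were seen. The result of 1 list gene is not reported here. The members and lists were chosen with earlier results of these data known. Alternatives were DESeq2 1.42.0, RLE factors, no filter, no minimum fold, the 9 libraries of a region alone, each library left out, the libraries tagged L2 alone (the tag, taken as the sequencing lane, and the mouse number come from column names in the study's supplement, joined by equal counts of 367 genes), and blocks. Replicate numbers are no label of a shared litter or day. Deviations from group means correlated between -0.19 and 0.31 in 18 pairs with the same replicate number within a region, 4 of them above 0.1, and between -0.03 and 0.17 in 8 pairs from the same mouse, 2 above 0.1. The mouse was used as a block between regions because both were dissected from each brain. P-values of the main model measure the spread between mice of a group, 3 a group, pooled over both regions. That model has no block and takes the libraries of both regions of a mouse as independent. The test was tried on simulated counts first. Promoter sequences came from RefSeq.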

Additional observations from a re-analysis of the deposited data

Results flagged for a closer look

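The fall of Reln after CFA differed between the regions by a test of the difference itself. The log2 fold change over controls was -1.04 in the BNST and -0.13 in the mPFC, and the difference was -0.91 ± 0.22 (SE) in edgeR's interaction, with an adjusted p of 0.0264. Each of 3 CFA libraries lay below each of 3 control libraries in the BNST, while the groups overlapped in the mPFC. In that BNST comparison, 31.5% of all tested genes had groups that did not overlap. Over the fits without 1 library the difference ranged from -1.20 to -0.76, and the call was lost in 6 of 18 of them, with an adjusted p of up to 0.0724. It was also lost with no filter on low counts, with an adjusted p of 0.0808.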

How the results depend on the processing

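Of the values of single members under the alternatives, none reversed a called direction, 2401 kept their side of the threshold, 33 gained a call and 41 lost one. The count of members called moved as follows. Under DESeq2 it was 1 in the BNST after formalin against controls and 1 for formalin against CFA, and RLE factors and no minimum fold gave 1 for formalin against CFA in the BNST. With no filter on low counts it was 1 in the BNST after CFA against controls and 0 for the region difference of the CFA change. With the libraries tagged L2 alone, which leave 1 BNST control library and assume that it varies like the others, it was 3 in the BNST after formalin, 4 after CFA, 1 for formalin against CFA, 2 for the region difference of the formalin change and 4 for that of the CFA change. The BNST controls tagged L1 and the BNST formalin library tagged L3 are the libraries left out there. With the 9 libraries of a region alone it was 1 in the BNST after CFA, 1 in the mPFC after formalin and 1 in the mPFC after CFA, both times Vip. The causes were not tested. The share of all tested genes called is not given for these fits or those with blocks, so the counts are no result about members.

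With the replicate block the count was 1 for formalin against CFA in the BNST. With the animal block it was 2 for the region difference of the CFA change. Blocks changed no other count by more than 1.5 times.

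Without each library in turn, the count ranged from 1 to 3 in the BNST after CFA, from 0 to 1 in the BNST after formalin and for formalin against CFA, from 0 to 2 for the region difference of the CFA change, from 7 to 9 between regions in CFA mice and from 7 to 8 in control mice. It stayed at 7 in formalin mice, at 0 in all 3 mPFC comparisons and at 0 for the region difference of the formalin change. In the same fits, 1647 to 2744 of all genes were called in the BNST after CFA and 2 to 903 after formalin. Between formalin and CFA there, 809 to 2414 were called, and 497 to 895 for the region difference of the CFA change. Vip in the BNST rests on 12 to 92 counts a library, and Pvalb and Cck had an SD about as large as the mean in the BNST controls.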
